A study of Mus musculus with 28 samples.

Results

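The genes described here are 40 mouse genes around ATF4, the transcription factor of the amino acid response. They comprise 8 regulators, 8 serine and one-carbon enzymes, 6 amino acid transporters, 7 other amino acid enzymes and 11 cytosolic aminoacyl-tRNA synthetases. The members were taken by name from a fixed list, and all 40 were found among the 35267 genes of one bulk table and the 35429 of another. All 40 passed the filter on low counts in the first table (15224 genes), and 39 passed in the second (13375 genes), where Cbs did not. Single-cell data listed 39 members among 9448 genes for days 1 and 3, and 40 among 11662 for day 5.

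The study followed C57Bl/6 mouse bone marrow cells carrying leukaemia oncogenes and their response to benzarone, an inhibitor of the EYA phosphatases. In the line table the groups were EYA1_HOXA9 cells in 5 µM benzarone, EYA1_HOXA9 cells in the solvent DMSO, HOXA9 cells in 5 µM benzarone and HOXA9 cells in DMSO (n = 3 each, 72 h). Both lines started as c-Kit+ haematopoietic stem and progenitor cells (HSPCs) of bone marrow, carried their genes by retrovirus, were sorted on the fluorescent markers and had been replated in methylcellulose for 4 rounds. In the c-Kit table the groups were Ty1.MOZ-TIF2 cells (a tagged fusion oncoprotein of acute myeloid leukaemia, called MOZ-TIF2 cells here), c-Kit+ HSPCs with an empty retroviral vector, and freshly isolated c-Kit+ HSPCs (n = 2 each). Cells of the first 2 groups had been selected by their GFP and grown in cytokines for 4 days, and the fresh cells had neither virus nor culture. Single MOZ-TIF2 cells were read after 1, 3 and 5 days in 5 µM benzarone and after 1 and 5 days in DMSO, 1 sample a condition, and the day 5 conditions were cells of 1 pooled sample. These single cells, and those used for Ty1 chromatin immunoprecipitation, had been replated in methylcellulose, unlike the MOZ-TIF2 cells of the bulk table. The labels do not say whether replicates were separate cultures, so p-values measure only the spread between these samples, which may be technical.

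When amino acids run short, uncharged tRNA activates the kinase GCN2, which phosphorylates the initiation factor eIF2 and slows translation while ATF4 mRNA is translated more. ATF4, paired with partners such as CEBPG, binds C/EBP-ATF response elements and turns on genes that make serine, asparagine and proline, import amino acids and charge tRNA. Stress in the endoplasmic reticulum, haem shortage and mTORC1 signalling feed into the same factor. Leukaemia cells are known for a high demand on asparagine, glutamine and serine, and serine carbons supply the one-carbon units used for purines and thymidylate. ATF4 is set largely by translation, so the RNA of its targets is often read in place of its own.

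The response element core TGATGNAA (N is any base) was searched on both strands of promoter windows of 300 bases, 250 upstream of the start site and 50 downstream, from the RefSeq table on GRCm38.p6. A window was found for 33 of the 40 members. The core stood in the windows of 12 of these 33 members (36.4%), against 2.90% of the 10642 genes tested in the c-Kit table with a window and 3.97% of all 32851 windows. The form TGATGCAA stood in 9 of 33 (27.3%), against 0.827% of tested genes. The CRE palindrome TGACGTCA, which does not overlap the core, stood in 0 of 33, against 3.34% of tested genes. Many members are textbook ATF4 targets, so this count describes the list. The sequences below are 30-base stretches around the core, from the windows of 8 members whose RNA is followed below, the first 7 being those with the core that were lower with benzarone in EYA1_HOXA9 cells. Capitals mark the core, and each sequence is written 5′ to 3′ on the strand that carries it.
Chac1, chr2:119351038-119351067, minus strand: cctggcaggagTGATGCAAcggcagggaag
Trib3, chr2:152344028-152344057, plus strand: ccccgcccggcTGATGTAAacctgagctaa
Asns, chr6:7693214-7693243, minus strand: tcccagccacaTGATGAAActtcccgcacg
Slc1a4, chr11:20332699-20332728, plus strand: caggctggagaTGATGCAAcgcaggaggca
Pycr1, chr11:120643833-120643862, minus strand: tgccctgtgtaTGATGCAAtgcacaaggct
Gars, chr6:55037960-55037989, minus strand: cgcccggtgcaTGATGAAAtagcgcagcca
Yars, chr4:129189895-129189924, plus strand: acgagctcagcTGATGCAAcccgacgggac
Nupr1, chr7:126625562-126625591, plus strand: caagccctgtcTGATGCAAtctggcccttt
Read along the strand of the gene, the Asns core begins 23 bases upstream of the start site and the Chac1 core 193 bases upstream. The Slc1a4 core begins 4 bases upstream and spans the start site, and those of Trib3 and Yars lie just inside the transcript. The core was also in the windows of Got1, Aars, Iars and Tars. A match is a description of letters, not a measured binding site.

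Libraries held 26340437 to 34605973 estimated counts in the line table and 12397443 to 34463785 in the c-Kit table, the fresh cells having the fewest. Levels are CPM, counts relative to the library total as scaled with TMM factors. Eya1 had 134 to 171 CPM with benzarone and 201 to 276 CPM in DMSO in EYA1_HOXA9 cells, and 0 or 1 count in each HOXA9 library. Hoxa9 had 1238 to 1646 CPM with benzarone and 314 to 507 CPM in DMSO in EYA1_HOXA9 cells. Markers of other cells moved with several groups. Mast cell markers (9 genes) summed to 35.8 and 47.3 CPM in MOZ-TIF2 cells, 58360 and 86830 CPM in empty-vector cells and 251 and 268 CPM in fresh cells. Kit, the label's own marker, had 29.0 and 41.0 CPM in MOZ-TIF2 cells, 4003 and 4269 CPM in empty-vector cells and 138 and 181 CPM in fresh cells. Summed cycling markers were 2010 and 2750 CPM in MOZ-TIF2 cells, 827 and 1243 CPM in empty-vector cells and 2463 and 2547 CPM in fresh cells. Erythroid markers (10 genes) summed to 4.59 and 5.16 CPM in MOZ-TIF2 cells, where 6 of the 10 were at 0, and to 4638 and 6670 CPM in fresh cells. Late neutrophil markers (10 genes) summed to 1048 and 5478 CPM in MOZ-TIF2 cells and 95.9 and 164 CPM in empty-vector cells. In fresh cells they summed to 21117 and 23075 CPM. Fewer cells of a type and less RNA per cell cannot be told apart in these bulk libraries, and the part of other cell types in the results was not tested.

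The first comparison set MOZ-TIF2 cells against the fresh HSPCs they derive from. The ATF4 regulators and a few amino acid genes were higher in MOZ-TIF2 cells: 12 of 40 members were called higher and 1 lower (edgeR quasi-likelihood test, adjusted p under 0.05), against 11.3% and 12.4% of all 15224 genes. The median log2 difference of the members was 1.00, and that of all tested genes was 0.00. By role, 6 of 8 regulators, 2 of 8 serine and one-carbon enzymes, 2 of 6 transporters, 2 of 7 amino acid enzymes and 0 of 11 tRNA synthetases were called higher.

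Atf4 itself had 426 and 509 CPM in MOZ-TIF2 cells, against 262 and 208 CPM in fresh cells. Both MOZ-TIF2 libraries lay above both fresh ones, a log2 difference of 0.99 ± 0.23 (SE, adjusted p = 0.03, edgeR). Trib3, a pseudokinase that ATF4 induces and that restrains it, had 12.7 and 62.6 CPM in MOZ-TIF2 cells and 0.959 and 0.524 CPM in fresh cells. It had the largest difference of the regulators, 5.68 ± 0.95 on the log2 scale (adjusted p = 0.012, edgeR). Chac1, which degrades glutathione, had 6.80 and 27.0 CPM in MOZ-TIF2 cells, against 0.959 and 1.28 CPM in fresh cells, and rose by 3.91 ± 0.84 (log2, adjusted p = 0.024, edgeR). Atf5, a related factor, rose by 3.14 ± 0.50, with 47.1 and 124 CPM in MOZ-TIF2 cells and 11.1 and 8.26 CPM in fresh cells. Nupr1, a small stress-induced chromatin protein, had 10.7 and 18.7 CPM in MOZ-TIF2 cells and 1.99 and 0.815 CPM in fresh cells (log2 difference 3.40 ± 0.71). In all of these the groups did not overlap, and replicate 2 was the higher MOZ-TIF2 library.

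Ddit3, which encodes the stress factor CHOP, overlapped between the groups. It had 9.07 and 16.7 CPM in MOZ-TIF2 cells and 13.1 and 8.50 CPM in fresh cells (log2 difference 0.25 ± 0.56, adjusted p = 0.77, edgeR). Among the enzymes, Gpt2, the mitochondrial alanine aminotransferase, had 38.7 and 150 CPM in MOZ-TIF2 cells, against 2.43 and 2.62 CPM in fresh cells (5.22 ± 0.95 on the log2 scale). Cth, which makes cysteine from cystathionine, was near absent from fresh cells, with 7 and 1 counts, and had 225 and 2291 counts in MOZ-TIF2 cells. That is 6.14 and 66.8 CPM in MOZ-TIF2 cells, and the fitted difference was 7.05 ± 1.64 (log2).

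Each enzyme of the serine chain was higher in both MOZ-TIF2 libraries than in both fresh ones, but Psph alone was called. Phgdh, the first enzyme of serine synthesis, had 309 and 413 CPM in MOZ-TIF2 cells and 216 and 187 CPM in fresh cells (log2 difference 0.84 ± 0.69, adjusted p = 0.4, edgeR). Psat1, the second, had 472 and 495 CPM in MOZ-TIF2 cells and 132 and 140 CPM in fresh cells, without overlap, but also missed the threshold (1.83 ± 0.57, adjusted p = 0.063, edgeR). Psph, the last, rose by 1.58 ± 0.34 (log2), with 48.4 and 75.4 CPM in MOZ-TIF2 cells and 20.4 and 21.0 CPM in fresh cells. The folate enzymes Mthfd2 and Mthfd1 went opposite ways, while 39 of the 40 members, of both compartments, had a difference above 0. Mthfd2, mitochondrial, had 87.2 and 188 CPM in MOZ-TIF2 cells, against 37.3 and 39.9 CPM in fresh cells, and rose by 1.83 ± 0.43 (adjusted p = 0.031, edgeR). Mthfd1, its cytosolic counterpart, was the one member called lower, with 115 and 80.4 CPM in MOZ-TIF2 cells and 365 and 390 CPM in fresh cells (log2 difference -1.95 ± 0.32, adjusted p = 0.011, edgeR). Shmt2, the mitochondrial serine hydroxymethyltransferase, had 306 and 467 CPM in MOZ-TIF2 cells and 250 and 221 CPM in fresh cells and was not called (0.72 ± 0.35).

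Of the transporters, Slc1a4 (log2 difference 1.90) and Slc1a5 (1.27), which carry neutral amino acids including serine and glutamine, were higher in MOZ-TIF2 cells. Slc7a5, the light chain of the leucine transporter, had 214 and 458 CPM in MOZ-TIF2 cells and 148 and 162 CPM in fresh cells. Its heavy chain Slc3a2 had 209 and 353 CPM in MOZ-TIF2 cells and 185 and 160 CPM in fresh cells, and neither chain was called. Asns, which makes asparagine, had 176 and 478 CPM in MOZ-TIF2 cells, against 151 and 160 CPM in fresh cells (1.07 ± 0.83, adjusted p = 0.38, edgeR). Aars, the alanyl-tRNA synthetase, had 278 and 458 CPM in MOZ-TIF2 cells and 203 and 193 CPM in fresh cells (0.90 ± 0.34, adjusted p = 0.11, edgeR). The 11 synthetases had a median difference of 0.72, and the other 12 cytosolic synthetases of -0.31 (log2), with 1 of the 12, Vars, called lower. These calls rest on 2 fresh libraries: without either of them no member kept a call, and far fewer of all genes were called. Without MOZ-TIF2 replicate 2 fewer members were called higher, and fewer of all genes too.

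**Figure D1:**
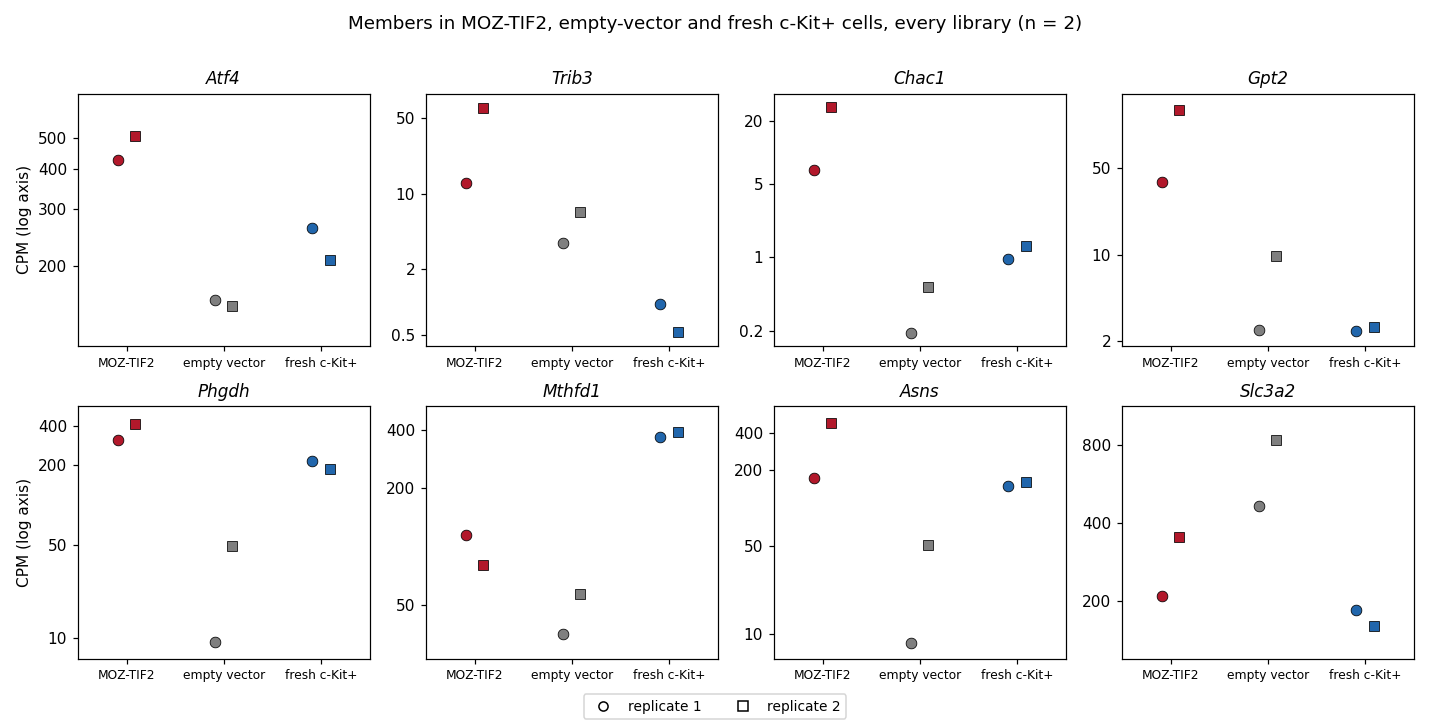
CPM (log axis) of 8 members in each MOZ-TIF2, empty-vector and fresh c-Kit+ library, with symbols for the replicates. Atf4, Trib3, Chac1 and Gpt2 are highest in both MOZ-TIF2 libraries, Mthfd1 is highest in the fresh cells (365 and 390 CPM), and Phgdh and Asns are lowest in the empty-vector cells.

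The second comparison set MOZ-TIF2 cells against empty-vector cells, which had the same sort and culture but differed in cell markers. Mast cell markers summed to 58360 and 86830 CPM in empty-vector cells and 35.8 and 47.3 CPM in MOZ-TIF2 cells. Cycling markers summed to 827 and 1243 CPM and 2010 and 2750 CPM in the same order. The part of these cell types in the differences was not tested. Here 24 of 40 members were higher in MOZ-TIF2 cells and 1, Ddit4, lower, against 13.3% and 16.2% of all genes, and the members' median log2 difference was 1.59 (all tested genes 0.03). The serine and one-carbon enzymes were the role with the largest share of calls, 7 of 8. Higher were also 5 of 8 regulators, 2 of 6 transporters, 3 of 7 amino acid enzymes and 7 of 11 synthetases. Phgdh had 309 and 413 CPM in MOZ-TIF2 cells, against 9.32 and 49.1 CPM in empty-vector cells (log2 difference 3.62 ± 0.76, adjusted p = 0.017, edgeR). Asns had 176 and 478 CPM in MOZ-TIF2 cells and 8.50 and 51.4 CPM in empty-vector cells (3.44 ± 0.90, adjusted p = 0.034, edgeR). The groups did not overlap for either gene.

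Chac1 had 6.80 and 27.0 CPM in MOZ-TIF2 cells and 0.191 and 0.519 CPM in empty-vector cells, the largest called difference among members of at least 5 CPM (5.52 ± 0.91, adjusted p = 0.0082, edgeR). Gpt2 had 38.7 and 150 CPM in MOZ-TIF2 cells and 2.44 and 9.75 CPM in empty-vector cells (3.94 ± 0.87). Nupr1 had 10.7 and 18.7 CPM in MOZ-TIF2 cells and 0.812 and 2.01 CPM in empty-vector cells (3.37 ± 0.70). Atf4 had 426 and 509 CPM in MOZ-TIF2 cells, against 156 and 150 CPM in empty-vector cells (1.61 ± 0.23, adjusted p = 0.0054, edgeR). Shmt2 and Psat1 were higher in MOZ-TIF2 cells by 2.15 ± 0.36 and 2.62 ± 0.58, with 63.1 and 111 CPM and 33.8 and 123 CPM in empty-vector cells. Cbs, which starts cysteine synthesis from serine, had 86 and 56 counts in MOZ-TIF2 cells and 1 and 0 counts in empty-vector cells. Members not called included Ddit3, with 23.0 and 8.71 CPM in empty-vector cells, and Mthfd2, with 51.4 and 86.6 CPM, while Aars, with 121 and 195 CPM there, was higher in MOZ-TIF2 cells by 1.22 ± 0.35. Ddit4, an inhibitor of mTORC1, had 29.9 and 49.5 CPM in MOZ-TIF2 cells, against 98.7 and 76.6 CPM in empty-vector cells (log2 difference -1.14 ± 0.30, adjusted p = 0.035, edgeR). The Ddit4 call was lost in 5 of the 6 fits that each left out 1 library (adjusted p = 0.062 to 0.14, edgeR) and held without MOZ-TIF2 replicate 2 (adjusted p = 0.016, edgeR), and it was lost with the replicate block and with the compared groups alone. Slc3a2 was called lower without MOZ-TIF2 replicate 2 or empty-vector replicate 1. Without fresh replicate 1 or 2 or empty-vector replicate 1 fewer members were called higher, and fewer of all genes too.

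Empty-vector cells were then set against fresh cells. Both earlier comparisons use 1 of these groups, so the 3 are not independent. Of 40 members 3 were called higher and 6 lower, against 21% and 19.7% of all genes. The higher calls were below the share of all genes, and the lower calls were near it. With the DESeq2 Wald test 11 of 40 members were lower, against 3389 of 22862 genes. The 6 lower members were Phgdh, Shmt1, Shmt2, Mthfd1 and Mthfd1l among the serine and one-carbon enzymes, and Cbs. Mthfd1 had 35.5 and 57.2 CPM in empty-vector cells, against 365 and 390 CPM in fresh cells (log2 difference -3.02 ± 0.33, adjusted p = 0.0021, edgeR). Phgdh was lower by -2.78 ± 0.73 (log2), Mthfd1l, the mitochondrial formate-producing enzyme, by -2.18 ± 0.42 with 18.3 and 42.0 CPM in empty-vector cells and 133 and 140 CPM in fresh cells, and Shmt1, the cytosolic serine hydroxymethyltransferase, by -1.90 ± 0.40 with 6.40 and 15.0 CPM and 39.4 and 40.6 CPM. The 3 higher members were Ddit4 (2.73 ± 0.32, with 98.7 and 76.6 CPM in empty-vector cells and 14.6 and 11.9 CPM in fresh cells), Trib3 (2.81 ± 0.88, with 3.54 and 6.74 CPM and 0.959 and 0.524 CPM) and Slc3a2 (1.90 ± 0.39). Slc3a2 had 465 and 829 CPM in empty-vector cells, against 185 and 160 CPM in fresh cells, while its partner Slc7a5 had 69.7 and 177 CPM in empty-vector cells and 148 and 162 CPM in fresh cells. Slc3a2 also serves other light chains, and Slc7a8, one of these, was 4.85 higher in empty-vector cells on the log2 scale. Of the 11 member synthetases 0 were called, whereas 10 of the other 12 cytosolic synthetases were lower in empty-vector cells (medians -0.33 and -1.19). Cycling markers were lower in the same cells, 5 of 8 by the test, and their part in these values was not tested. Without either fresh library fewer members were called, and fewer of all genes too. Without empty-vector replicate 2 more members were called lower, while fewer of all genes were.

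Replicates of the cultured groups differed in many of these genes. In MOZ-TIF2 replicate 2, 27 of 40 members were at least 1.5 times replicate 1, against 16.4% of all tested genes, and 0 were as far below. Asns had 478 CPM in replicate 2 and 176 in replicate 1, Cth 66.8 and 6.14, and Trib3 62.6 and 12.7. Cell markers differed as well: late neutrophil markers summed to 5478 CPM in MOZ-TIF2 replicate 2 and 1048 CPM in replicate 1. Primary granule markers summed to 9391 and 15816 CPM in the same order. The part of these cells in the replicate differences was not tested. In empty-vector replicate 2, 25 of 40 were at least 1.5 times replicate 1, against 12.2% of all genes. Between the fresh libraries 2 of 40 members, Ddit3 and Nupr1, were apart by that factor, against 5.25% of all genes lower and 6.14% higher in replicate 1.

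**Figure D2:**
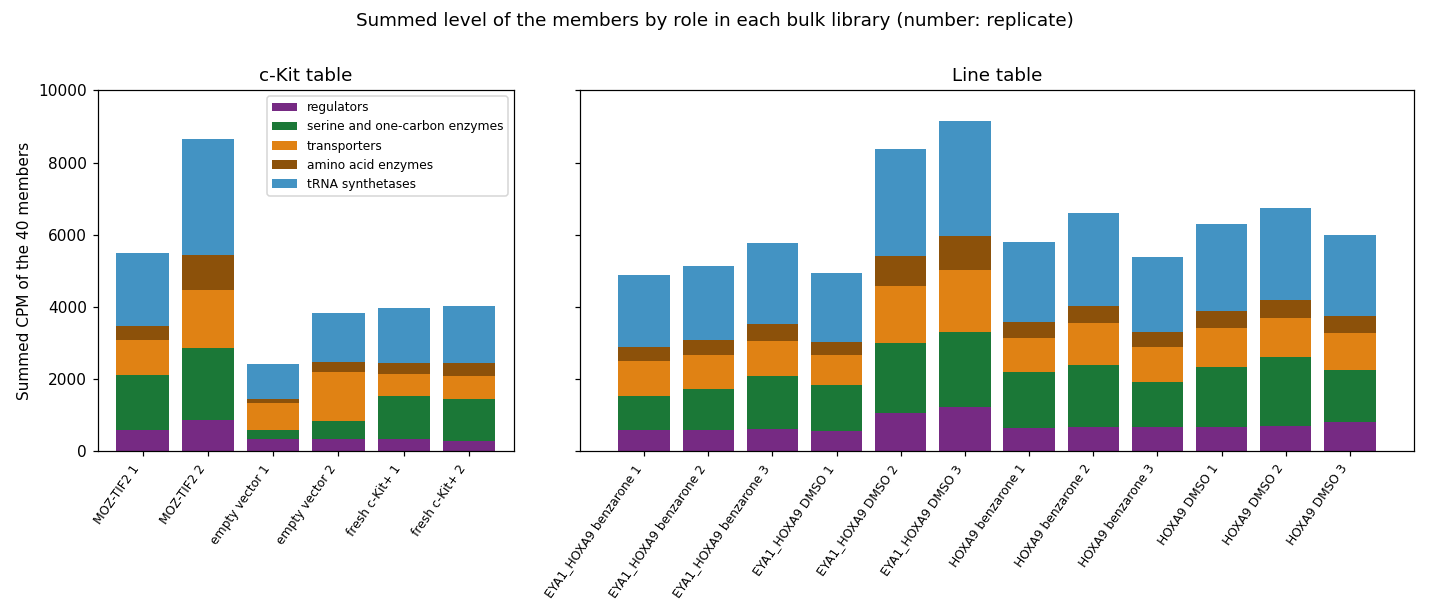
Summed CPM of the 40 members in each bulk library, stacked by role, for the c-Kit table on the left and the line table on the right (bars start at 0; the numbers under the bars are replicates). EYA1_HOXA9 DMSO replicates 2 and 3 (8383 and 9149 CPM) and MOZ-TIF2 replicate 2 (8640 CPM) stand above the other libraries, and EYA1_HOXA9 DMSO replicate 1 (4937 CPM) lies at the level of the benzarone libraries.

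Among the line libraries 1 stood apart in these genes. In EYA1_HOXA9 DMSO replicate 1, 30 of 39 tested members were at least 1.5-fold below both other DMSO libraries of that line, against 5.29% of all 13375 tested genes. The summed members were 4937 CPM there, against 8383 and 9149 CPM in replicates 2 and 3. Benzarone libraries of the line held 4886, 5150 and 5785 CPM. Other lists differed in where they placed the low library. Its summed monocyte markers were 373 CPM, between the 406 and 320 CPM of the other DMSO libraries and below the 807 to 1689 CPM of the benzarone libraries. Its unfolded protein response genes summed to 8213 CPM, against 7312 and 5910 CPM in replicates 2 and 3 and 13123 to 16177 CPM with benzarone. Its mast cell markers summed to 39.5 CPM, within the 29.8 to 42.5 CPM of the benzarone libraries. The other DMSO libraries had 62.6 and 68.3 CPM. Stem and progenitor markers of the low library summed to 38.8 CPM, within the 33.1 to 45.4 CPM of the benzarone libraries. In the other DMSO libraries these were 63.3 and 69.4 CPM. Kit and Gata2 stand on both of these lists, so their sums are not separate readings. Of the 9 mast cell markers 7 had no counts in any EYA1_HOXA9 library. Cycling markers of the low library summed to 1930 CPM, also within the 1914 to 1971 CPM of the benzarone libraries. Replicates 2 and 3 in DMSO had 2070 and 2096 CPM. The part of these cells in the low values was not tested, and counts on this group are given below with and without the library.

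Members low in this library were set beside those low in MOZ-TIF2 replicate 1. Of the 27 members low in MOZ-TIF2 replicate 1, 25 (92.6%) were among the 30 low here (83.3% of those). Among the 13041 genes tested in both tables, 2263 were low in MOZ-TIF2 replicate 1 and 696 in the EYA1_HOXA9 library, and 358 were shared (15.8% and 51.4%). Between MOZ-TIF2 and empty-vector replicate 1, 17 members were shared (63% of 27 and 68% of 25), against 350 of all genes (14% of 2501 and 18.8% of 1860). With 27 of 40, 30 of 39 and 25 of 40 members low in these libraries, large overlaps of members are bound to occur. The overlaps of all genes start from much smaller shares, so they are no like measure, and a link between the low libraries was not tested.

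Benzarone against DMSO in EYA1_HOXA9 cells asked how an EYA inhibitor changes RNA in cells carrying EYA1. Members of every role were lower with benzarone and none higher: 16 of 39 were called lower and 0 higher, against 12.4% and 17% of all genes. The members' median log2 difference was -0.55 (all tested genes 0.01), and 37 of 39 differences were below 0. Lower were 4 of 8 regulators (Atf4, Trib3, Chac1, Cebpg), 3 of 8 serine and one-carbon enzymes (Psat1, Shmt1, Mthfd2), 2 of 6 transporters (Slc1a4, Slc7a1), 4 of 6 amino acid enzymes (Asns, Pycr1, Cth, Gpt2) and 3 of 11 synthetases (Cars, Gars, Yars). Without DMSO replicate 1, 32 of 40 members were lower, among them all 16, with a median of -0.77, and of all 13743 genes tested 1694 were lower and 2229 higher. By role these were 6 of 8 regulators, 6 of 8 serine and one-carbon enzymes, 6 of 6 transporters, 6 of 7 amino acid enzymes and 8 of 11 synthetases. Without DMSO replicate 2 the lower members were 7 of 39, against 1122 of 13616 genes, and without DMSO replicate 3 they were 5 of 40, against 894 of 13694. Without benzarone replicate 1 they were 6 of 40, against 1090 of 13645 genes, and without benzarone replicate 2 they were 8 of 40, against 1061 of 13653. Fewer of all genes were thus called lower in these fits too.

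Atf4 had 395, 431 and 419 CPM with benzarone, against 414, 637 and 708 CPM in DMSO. The low DMSO library lay inside the benzarone range and the other DMSO libraries above it, and the log2 difference was -0.50 ± 0.17 (adjusted p = 0.04, edgeR). Trib3 had 5.66, 3.86 and 8.12 CPM with benzarone and 4.40, 82.7 and 102 CPM in DMSO, a difference of -3.42 ± 0.79 (adjusted p = 0.0069, edgeR). Replicate 1 in DMSO fell within the benzarone range here too, and the other DMSO libraries were over 10 times as high as any benzarone library. Chac1 had 3.08, 3.20 and 2.54 CPM with benzarone and 5.25, 26.0 and 31.2 CPM in DMSO, so that all DMSO libraries lay above all benzarone ones (-2.82 ± 0.77, adjusted p = 0.016, edgeR). Ddit3 had 18.6, 10.2 and 19.7 CPM with benzarone, against 4.88, 35.8 and 40.2 CPM in DMSO, which puts DMSO replicate 1 below and the others above the treated cells (-0.74 ± 0.54, adjusted p = 0.33, edgeR). Nupr1 overlapped, with 30.8, 20.2 and 26.2 CPM with benzarone and 6.35, 32.5 and 33.6 CPM in DMSO (0.09 ± 0.43, adjusted p = 0.9, edgeR). Without DMSO replicate 1 the log2 differences were -0.70 for Atf4, -3.98 for Trib3, -3.28 for Chac1, -1.23 for Ddit3 and -0.36 for Nupr1, and all but Nupr1 were called.

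Among the enzymes of serine and folate, Shmt1 had 29.4, 38.0 and 45.2 CPM with benzarone and 67.2, 61.4 and 60.9 CPM in DMSO. It was the member with the smallest p, DMSO replicate 1 was not low for it, and the groups did not overlap (log2 difference -0.75 ± 0.15, adjusted p = 0.0028, edgeR). Mthfd2 had 64.6, 61.4 and 63.0 CPM with benzarone and 73.2, 188 and 222 CPM in DMSO, also without overlap (-1.35 ± 0.30, adjusted p = 0.005, edgeR). Psat1 had 234, 287 and 384 CPM with benzarone and 338, 516 and 574 CPM in DMSO, and benzarone replicate 3 lay above DMSO replicate 1 (-0.66 ± 0.22, adjusted p = 0.038, edgeR). Phgdh had 157, 222 and 301 CPM with benzarone and 197, 348 and 347 CPM in DMSO, and Shmt2 235, 282 and 358 CPM with benzarone and 299, 496 and 556 CPM in DMSO. Both overlapped through DMSO replicate 1 and missed the threshold (-0.39 ± 0.29 and -0.63 ± 0.23). Mthfd1 had 74.9, 89.3 and 105 CPM with benzarone and 107, 83.7 and 79.1 CPM in DMSO, with a log2 difference of 0.00. Without DMSO replicate 1 the differences were -0.70 for Shmt1, -1.70 for Mthfd2, -0.85 for both Psat1 and Shmt2, all called, and -0.62 for Phgdh and 0.14 for Mthfd1, not called.

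Asns had 147, 145 and 204 CPM with benzarone and 159, 349 and 394 CPM in DMSO (-0.86 ± 0.26, adjusted p = 0.027, edgeR). Gpt2 had 50.1, 47.0 and 44.6 CPM with benzarone and 46.2, 170 and 207 CPM in DMSO (-1.58 ± 0.40, adjusted p = 0.011, edgeR). In both, DMSO replicate 1 lay within the benzarone range. Cth had 0, 1 and 5 counts with benzarone, against 2, 261 and 264 counts in DMSO. Its fitted difference, -6.33 ± 1.31 (adjusted p = 0.0038, edgeR), thus rests on DMSO replicates 2 and 3. Slc1a4 had 6.41, 5.94 and 5.87 CPM with benzarone and 2.45, 29.4 and 35.7 CPM in DMSO, so replicate 1 was below every treated library (-1.89 ± 0.63, adjusted p = 0.04, edgeR). Slc7a1, the arginine transporter, was lower by -0.78 ± 0.25 (adjusted p = 0.031, edgeR). Slc7a5 had 218, 229 and 228 CPM with benzarone and 218, 373 and 398 CPM in DMSO, and Slc3a2 232, 238 and 248 CPM with benzarone and 171, 350 and 373 CPM in DMSO, and neither passed. Aars had 273, 251 and 287 CPM with benzarone and 220, 362 and 387 CPM in DMSO (-0.26 ± 0.18). The called synthetases differed less than Trib3 and Chac1 but about as much as Atf4. Cars was lower by -0.58 ± 0.15, Gars by -0.52 ± 0.16 and Yars by -0.47 ± 0.14. Without DMSO replicate 1 the differences of Asns, Gpt2, Cth, Slc1a4, Slc7a5, Slc3a2 and Aars were -1.17, -1.996, -6.91, -2.42, -0.78, -0.59 and -0.47 in that order, and all were called.

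**Figure D3:**
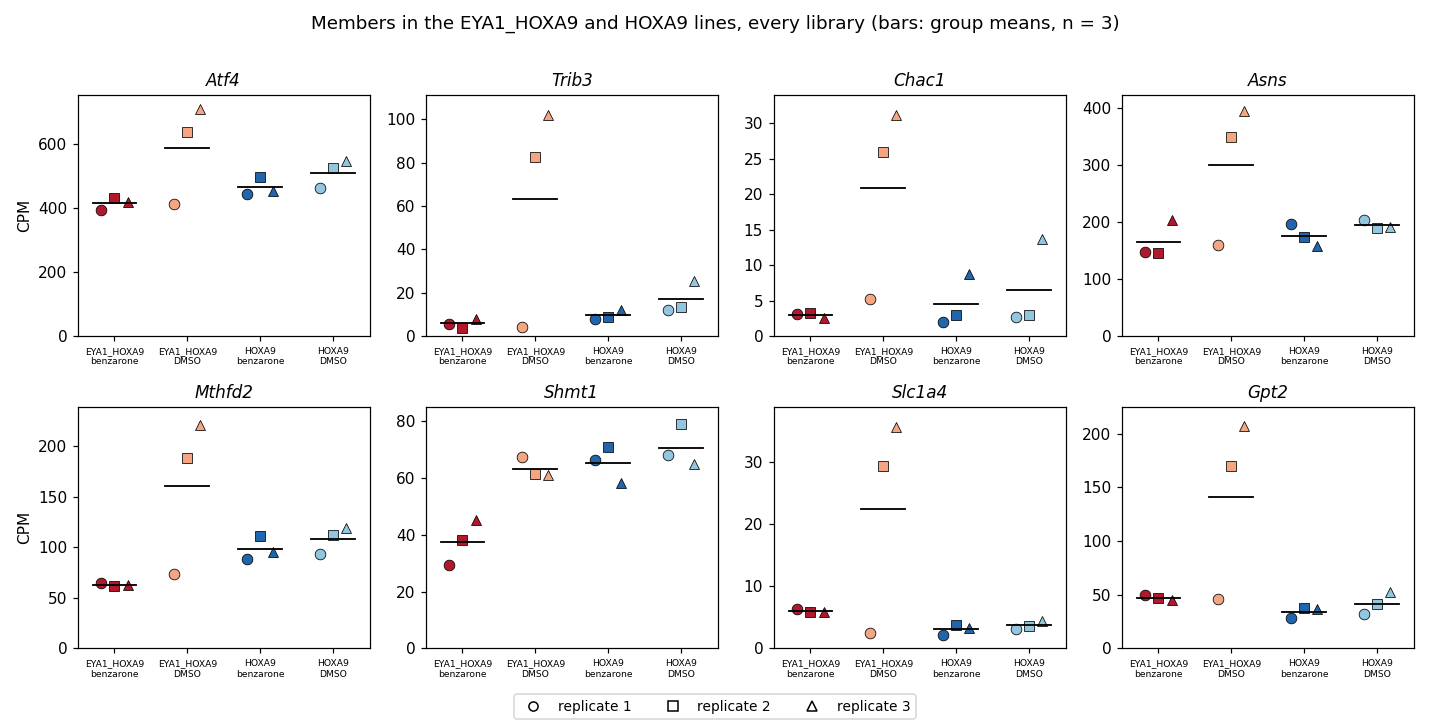
CPM of 8 members in each library of the EYA1_HOXA9 and HOXA9 lines with benzarone and DMSO (axes start at 0; bars are group means, n = 3; symbols are replicates). EYA1_HOXA9 DMSO replicates 2 and 3 stand above all other libraries for 7 of the 8 genes, while Shmt1 is lowest in the 3 EYA1_HOXA9 benzarone libraries (29.4 to 45.2 CPM).

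Members were also split by the response element core in this comparison. Of the members with the core 7 of 12 were lower (median log2 difference -0.49), and of the tested members whose window lacked it 7 of 20 (-0.60). The members without the core that were called included Atf4, Cebpg, Psat1, Shmt1, Mthfd2, Slc7a1 and Gpt2. Without DMSO replicate 1 the lower members were 9 of 12 with the core (median -0.68) and 17 of 20 without it (-0.81). The difference between these shares was not tested.

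In HOXA9 cells benzarone changed no member by the test. The counts were 0 higher and 0 lower of 39, against 0% and 0% of all genes by edgeR, 232 of which had an unadjusted p under 0.05 and 0 of these were members. DESeq2 called 14 genes and 0 members. Same-numbered HOXA9 libraries deviated together, and with the replicate number as a block in a fit of HOXA9 cells alone 20 genes and 0 members were called. Atf4 had 443, 497 and 453 CPM with benzarone and 462, 524 and 547 CPM in DMSO, and Trib3 had 8.02, 8.94 and 12.2 CPM with benzarone and 11.9, 13.6 and 25.4 CPM in DMSO. Asns had 197, 173 and 157 CPM with benzarone and 205, 189 and 192 CPM in DMSO, and Gpt2 28.4, 37.8 and 36.3 CPM with benzarone and 32.0, 40.9 and 52.4 CPM in DMSO. All 4 genes overlapped between treatments when pooled. Mthfd2 (88.3, 111 and 95.3 CPM with benzarone, 93.1, 112 and 119 CPM in DMSO) and Shmt2 (376, 440 and 314 CPM with benzarone, 424, 469 and 356 CPM in DMSO) overlapped as well. The small differences had mostly 1 sign: 35 of 39 were below 0, with a median of -0.11 (all tested genes 0.00). Within the same-numbered pairs 21 of 39 members, these 6 genes among them, were lower with benzarone in all 3 pairs and 0 higher in all 3, against 11.9% and 14.7% of all genes.

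Other members of the HOXA9 line varied with the replicate number. Chac1 had 2.01, 2.99 and 8.74 CPM with benzarone and 2.66, 3.06 and 13.7 CPM in DMSO, so replicate 3 was highest in both treatments. Without DMSO replicate 3 the difference of Chac1 changed sign, at 0.68 against -0.50 with all libraries (log2), and that of Ddit4 at 0.88 against -0.34, and none of these values was called. Phgdh had 326, 335 and 209 CPM with benzarone and 326, 393 and 233 CPM in DMSO, and Psat1 381, 384 and 292 CPM with benzarone and 391, 460 and 370 CPM in DMSO, replicate 3 being lowest for both. Nupr1 (17.4, 11.3 and 14.6 CPM with benzarone, 18.6, 14.8 and 18.5 CPM in DMSO) and Ddit3 (16.9, 10.3 and 11.5 CPM with benzarone, 17.0, 12.7 and 16.2 CPM in DMSO) overlapped. So did Aars (249, 306 and 268 CPM with benzarone, 308, 298 and 276 CPM in DMSO), Slc7a5 (193, 301 and 242 CPM with benzarone, 263, 256 and 265 CPM in DMSO) and Slc3a2 (259, 256 and 174 CPM with benzarone, 268, 272 and 203 CPM in DMSO).

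The test of the difference between the lines' responses called 1 member, Cth, lower in the EYA1_HOXA9 response (-5.79 ± 1.61 on the log2 scale, adjusted p = 0.049, edgeR), and 0 higher, against 2.83% and 4.71% of all genes. Trib3 (-2.62 ± 1.05, adjusted p = 0.15) and Mthfd2 (-1.21 ± 0.41, adjusted p = 0.094) missed the threshold in the same edgeR test, and 36 of 39 members had a negative difference. The Cth call held in 1 of the 12 fits that each left out 1 library, the one without EYA1_HOXA9 DMSO replicate 1. Without that library the test called 16 of 40 members, all lower and Atf4, Trib3, Asns, Mthfd2, Slc1a4 and Gpt2 among them. Of all 13743 genes tested in that fit 498 were lower and 684 higher. Leaving out other libraries gave 0 to 2 calls: 0 without EYA1_HOXA9 benzarone 1 or 2, EYA1_HOXA9 DMSO 2 or 3, any HOXA9 benzarone library or HOXA9 DMSO 1 or 2. Without EYA1_HOXA9 benzarone 3 the call was Shmt1, and without HOXA9 DMSO 3 the calls were Ddit4 and Chac1.

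EYA1_HOXA9 and HOXA9 cells were also compared within each treatment, which asks what EYA1 adds to HOXA9. These comparisons share the libraries above and are not independent of them. In DMSO 3 of 39 members were higher in EYA1_HOXA9 cells and 1 lower, against 12.1% and 10.8% of all genes. Gpt2, with 46.2, 170 and 207 CPM in EYA1_HOXA9 cells and 32.0, 40.9 and 52.4 CPM in HOXA9 cells, was higher by 1.75 ± 0.40 (log2, adjusted p = 0.008, edgeR), although EYA1_HOXA9 replicate 1 lay among the HOXA9 libraries. Slc1a4, with 3.21, 3.58 and 4.49 CPM in HOXA9 cells, was higher in EYA1_HOXA9 cells by 2.58 ± 0.65 even though EYA1_HOXA9 replicate 1 was below all HOXA9 libraries. Cebpg had 76.3, 122 and 141 CPM in EYA1_HOXA9 cells and 60.1, 54.4 and 76.2 CPM in HOXA9 cells, with a bare gap between the groups (0.83 ± 0.20). Got1, the cytosolic aspartate aminotransferase, had 32.5, 40.2 and 35.6 CPM in EYA1_HOXA9 cells and 50.4, 59.6 and 42.0 CPM in HOXA9 cells, also with no overlap (-0.49 ± 0.16). Without EYA1_HOXA9 DMSO replicate 1, 22 of 40 members were higher and 0 lower, and of all 13743 genes tested 1837 were higher and 1649 lower. Without EYA1_HOXA9 DMSO 3 or HOXA9 DMSO 2 the count of higher members was 1 of 40, against 1038 of 13694 or 1005 of 13765 genes. The lower call, Got1, was lost in 8 of the 12 fits that each left out 1 library.

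In benzarone 0 of 39 members were higher in EYA1_HOXA9 cells and 2 lower, against 15.2% and 10.1% of all genes. Shmt1, at 29.4 to 45.2 CPM in EYA1_HOXA9 cells, had 66.4, 70.9 and 58.2 CPM in HOXA9 cells (log2 difference -0.80 ± 0.15, adjusted p = 0.0019, edgeR). Cth, with 0 to 5 counts in EYA1_HOXA9 cells, had 84, 85 and 125 counts in HOXA9 cells (-5.53 ± 1.32, adjusted p = 0.0088, edgeR). Both genes were without overlap. Without EYA1_HOXA9 DMSO replicate 1 in the joint fit 2 of 40 members were higher and 4 lower. Of all 13743 genes tested in that fit 2108 were higher and 1466 lower.

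**Figure D4:**
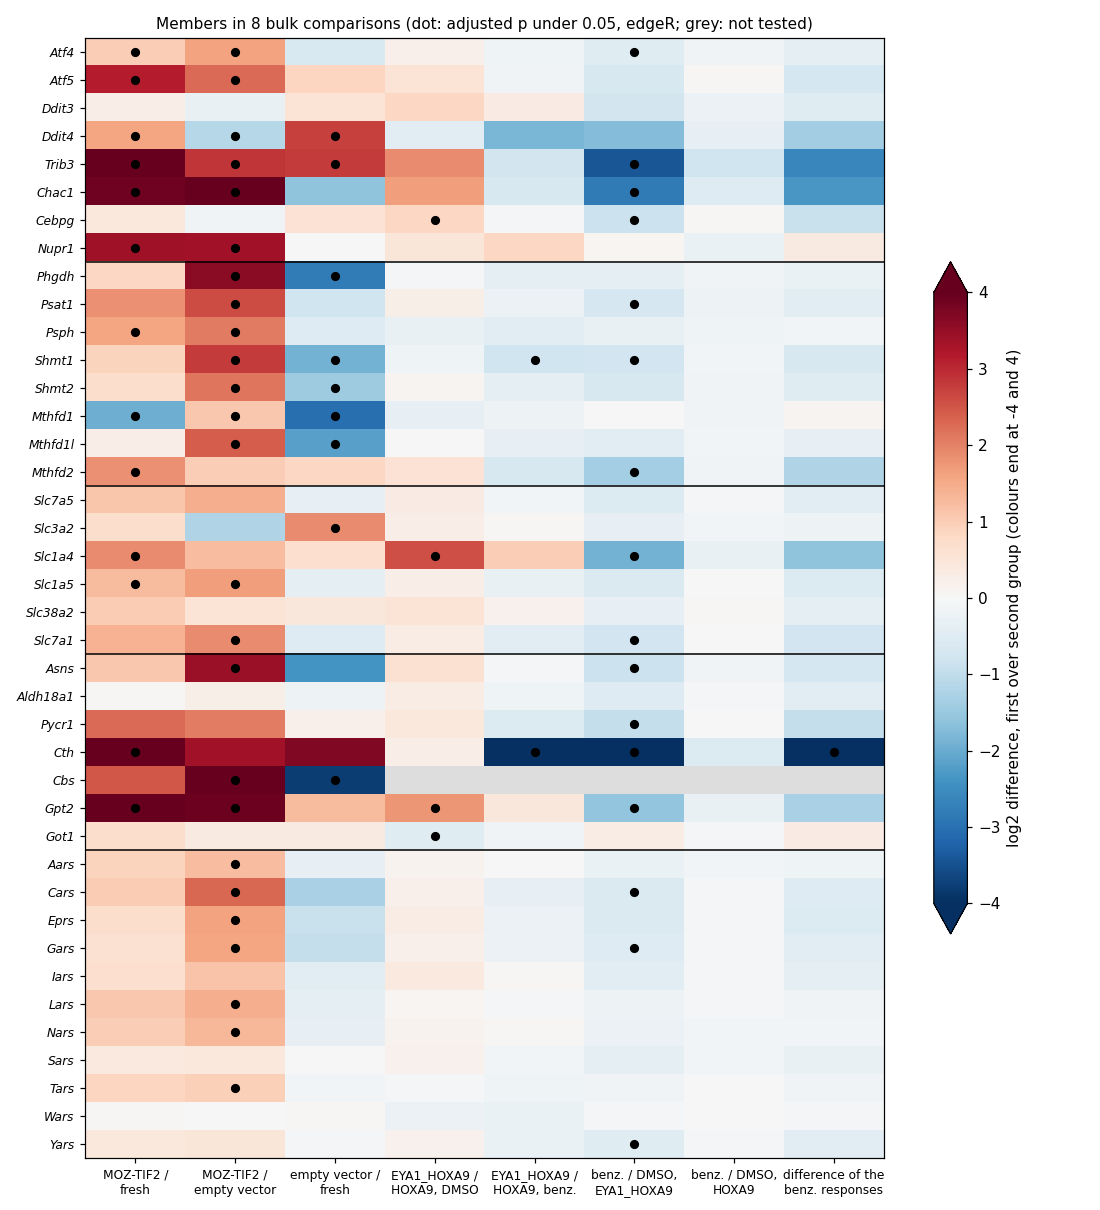
Log2 difference of each member (rows, grouped by role) in the 8 bulk comparisons (columns), first group over second, with dots where the adjusted p was under 0.05 and grey where a gene was not tested. Red fills the columns of MOZ-TIF2 cells (12 and 24 higher calls), blue fills the column of benzarone in EYA1_HOXA9 cells (16 lower calls), and the column of benzarone in HOXA9 cells is pale with 0 calls.

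Other genes of the pathway were read in benzarone-treated EYA1_HOXA9 cells, where 12.4% of all genes were lower and 17% higher. Counts near these shares say nothing particular about a list. Of 17 other tested ATF4 and integrated stress response genes, 8 were lower and 5 higher (median log2 difference -0.67), with Stc2 (-2.47) and Xpot (-0.84), a tRNA exporter, lower and Map1lc3b (0.64), an autophagy protein, higher. Without DMSO replicate 1 they were 13 lower and 4 higher of 19. The endoplasmic reticulum unfolded protein response went the other way: 11 of 15 genes were higher and 0 lower (median 1.01; 10 and 0 without DMSO replicate 1), led by the chaperone and folding genes Dnajc3 (1.23), Pdia4 (1.44) and Creld2 (1.44). In the test between the lines 8 of these 15 were called higher, whereas 1 member was called lower, against 4.71% and 2.83% of all genes. Of 12 other cytosolic synthetases 1 was lower (median -0.11), and of 17 mitochondrial synthetases 5 (median -0.20). The eIF2 kinases and exchange factors had 2 of 14 higher and 0 lower, the other amino acid transporters 4 of 14 higher and 3 lower, and the other folate and glycine genes 1 of 17 higher and 3 lower. Monocyte markers mostly went the other way from the members in these cells, with 5 of 10 tested markers higher and 1 lower. They summed to 807 to 1689 CPM with benzarone, against 320 to 406 CPM in DMSO, with none of the 11 at 0. Primary granule markers were lower for 4 of 7, with 5632 to 7860 CPM with benzarone and 8294 to 8586 CPM in DMSO. Cycling markers were nearly level, at 1914 to 1971 CPM with benzarone and 1930 to 2096 CPM in DMSO. The part of monocyte-like cells in the members' values was not tested.

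In MOZ-TIF2 cells against fresh cells, 10 of the 15 unfolded protein response genes and 6 of 19 other ATF4 genes were higher, against 11.3% of all genes. Slc7a11, the cystine importer, led the latter with a log2 difference of 5.38, and Stc2 had 8.38. Among other folate and glycine genes 3 of 18 were higher and 2 lower, near the 11.3% and 12.4% of all genes, with the mitochondrial folate enzyme Aldh1l2 at 4.49.

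Single MOZ-TIF2 cells gave the members over time in benzarone. UMIs (unique molecular identifiers, 1 per captured RNA) were summed over 826 benzarone and 883 DMSO cells on day 1, 829 benzarone cells on day 3, and 1496 benzarone and 1662 DMSO cells on day 5. With 1 sample a condition there is no test; ratios carry 95% exact intervals that cover counting error only, and a member counts as past the fold at 1.5-fold with at least 20 UMIs in the larger sum. The libraries shared 0 to 3 cell barcodes. Summed members were 2762 CPM with benzarone and 2883 CPM in DMSO on day 1, 2222 CPM with benzarone on day 3, and 1428 CPM with benzarone and 3396 CPM in DMSO on day 5.

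On day 1 4 members were past the fold, all lower, and 0 higher, against 0.921% and 0.879% of the listed genes. They were Cth (ratio 0.573, interval 0.464 to 0.707), Ddit3 (0.588, 0.517 to 0.669), Trib3 (0.629, 0.556 to 0.711) and Chac1 (0.649, 0.545 to 0.772). Trib3 had 11.3 CPM with benzarone and 18.0 CPM in DMSO, and Chac1 5.74 and 8.85 CPM in the same order. Most other members lay closer to 1, with Atf4 at 0.892, Phgdh at 1.08, Asns at 0.973 and the 11 synthetases at a median of 0.970. Thinned to 10000 UMIs a cell, 2 members were past the fold.

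From day 1 to day 3 of benzarone 2 members were past the fold, Chac1 (0.559, 0.444 to 0.703) and Trib3 (0.597, 0.509 to 0.700), and 0 were higher, against 0.783% and 4.99% of listed genes. The median ratio of the 39 members was 0.831, and that of all genes 0.970. Asns stood at 0.673, Psat1 at 0.699 and Phgdh at 0.719, just short of the fold. No DMSO sample of day 3 was read, so time in culture and benzarone cannot be told apart here. In cells thinned to equal UMIs the members past the fold were 6.

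On day 5 32 of 40 members were lower with benzarone past the fold and 1 higher, against 28.5% and 25.2% of the 11615 genes with enough UMIs. The median ratio of the members was 0.398. All 8 serine and one-carbon enzymes, all 7 amino acid enzymes, 10 of 11 synthetases, 4 of 6 transporters and 3 of 8 regulators were lower. The 8 largest were Cth (0.113), Phgdh (0.135), Shmt2 (0.170), Shmt1 (0.214), Pycr1 (0.220), Psph (0.245), Cbs (0.257) and Aldh18a1 (0.265). Phgdh had 64.3 CPM with benzarone and 478 CPM in DMSO, and Shmt2 26.7 and 157 CPM in the same order. These are the enzymes that make serine and split it into glycine and one-carbon units, together with the proline enzymes Pycr1 and Aldh18a1 and the cysteine enzymes Cth and Cbs.

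Of the 8 regulators 3 were lower past the fold and 1 higher. Ddit3 was higher with benzarone, at 27.7 CPM against 12.2 CPM in DMSO (ratio 2.26, 2.03 to 2.53), and Atf5 stood at 1.48. Nupr1 (0.997), Ddit4 (0.963) and Cebpg (1.09) were near 1. Atf4 had 151 CPM with benzarone and 272 CPM in DMSO (0.555, 0.536 to 0.573), Trib3 8.87 and 23.6 CPM (0.376) and Chac1 1.98 and 7.44 CPM (0.266). Slc3a2 (0.701) and Slc38a2 (0.947) also stayed within the fold, unlike Slc7a5 (0.268) and Slc1a5 (0.308). Other amino acid transporters were higher for 8 of 14 and lower for 3, and the other 12 cytosolic synthetases were all lower.

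The lower member share was spread over the cells of day 5. Members made up a median of 0.123% of a cell's UMIs with benzarone and 0.336% in DMSO, and the 95th percentile of benzarone cells (0.269%) lay below the 25th percentile of DMSO cells (0.277%). Median UMIs per cell were 19763 with benzarone and 24576 in DMSO. In cells thinned to 10000 UMIs the medians were 0.12% and 0.34%. Cell types moved with the drug: monocyte markers summed to 2219 CPM with benzarone and 110 CPM in DMSO, with all 10 listed markers past the fold, primary granule markers to 1666 and 10681 CPM, late neutrophil markers to 21620 and 10396 CPM, and cycling markers to 480 and 1042 CPM, in the same order. In the thinned cells without a monocyte marker UMI, 104 with benzarone and 677 in DMSO, the members summed to 1510 and 3366 CPM. In those with a cycling marker UMI, 1081 benzarone and 1583 DMSO cells, they summed to 1426 and 3345 CPM. In those without one, 289 benzarone and 37 DMSO cells, the sums were 1141 and 1403 CPM. The serine and one-carbon enzymes summed to 452 and 1274 CPM in the cells without a monocyte marker UMI, and to 246 and 1208 CPM in the cells with one.

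**Figure D5:**
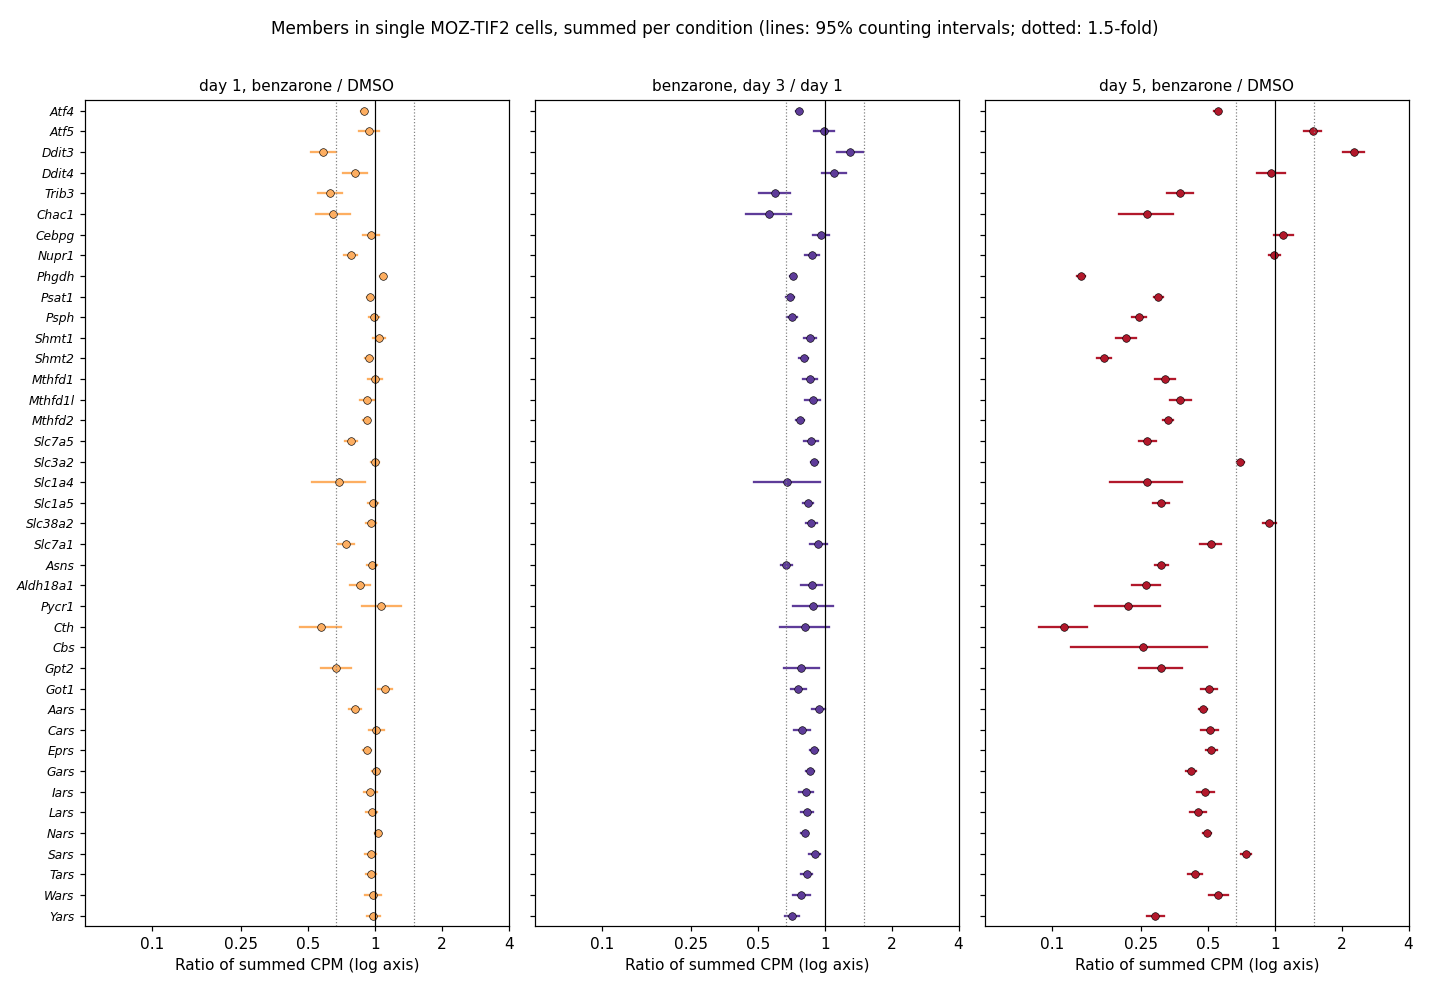
Ratio of summed CPM (log axis) of each member in single MOZ-TIF2 cells for benzarone over DMSO on day 1, benzarone day 3 over day 1, and benzarone over DMSO on day 5, with 95% counting intervals as lines and dotted marks at 1.5-fold either way. Day 1 ratios lie near 1 apart from a few, of which Ddit3, Trib3, Chac1 and Cth are past the mark, day 3 ratios lie mostly a little below 1, and on day 5 32 members lie left of the mark and Ddit3 right of it (2.26).

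Ty1 chromatin immunoprecipitation located the tagged MOZ-TIF2 protein, a readout the gene list did not use. A peak of replicate 1 that overlapped one of replicate 2 by at least 1 bp lay on the promoter window of 7 of 33 members (21.2%), against 16.1% of the 10642 tested genes with a window. The 7 were Atf5, Cebpg, Psph, Slc3a2, Slc38a2, Gars and Yars. The Atf5 peak spanned chr7:44816301-44817401 and the Slc38a2 peak chr15:96698601-96699851, and the Psph peak was the narrowest at chr5:129787401-129787751 (GRCm38). Atf5 and Psph were called higher in MOZ-TIF2 cells than in fresh cells, and the other 5 were not called. Within 5 kb of the window 11 of 33 members (33.3%) had a peak, against 26.5% of the tested genes. The labels give replicate 2 the catalogue number of the antibody used for acetylated histones, and replicate 1 alone put a peak on the same 7 members, against 17.6% of tested genes.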

How the data were processed

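RNA was measured in 18 bulk libraries of poly(A) RNA made with a strand-specific kit, per the labels' protocols, and in 4 single-cell samples, and 2 Ty1 immunoprecipitations gave peak lists. The other 4 chromatin samples were not used here. Bulk values are estimated counts per gene as deposited by the authors. Tools listed without a role in the submitters' processing notes are Salmon 0.13.0, Cell Ranger 3.0.0 and Bowtie2, with the builds GRCm38 and mm10. Single-cell values are whole UMI counts per gene and cell as deposited, with a condition named for each cell by the authors. The peak caller is not given in the sources used here. Peak edges lie on a 50-base grid, and peak coordinates were used as deposited.

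Estimated counts were rounded to whole numbers. Each bulk table was fitted whole with edgeR 4.0.16 (R 4.3.3, limma 3.58.1): genes with low counts were removed with filterByExpr, TMM factors were applied, and the quasi-likelihood F test was used with Benjamini-Hochberg adjustment over all tested genes. A call is an adjusted p under 0.05. Standard errors are the log2 difference divided by the root of F. All groups of a table shared 1 estimate of the spread, and tests were made within a table only. The code was tested on simulated data. Alternatives were DESeq2 1.42.0 (its size factors, and its Wald test), no filter, the compared groups alone, the replicate number as a block, a log2 difference of at least 1, and each library left out. Same-numbered HOXA9 libraries correlated in their deviations from the group means at 0.36, 0.43 and 0.73, so their numbers were taken to pair them. The other groups' numbers were not.

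UMIs were summed per condition, with no further filter on cells and no doublet caller. Ratios have exact binomial intervals and the alternatives thinned each cell to 10000 UMIs, leaving out 126 benzarone and 42 DMSO cells of day 5. The members and gene lists were chosen with earlier results of these data known. Values in every library are given for 14 members that stand for the roles (Atf4, Ddit3, Trib3, Chac1, Asns, Phgdh, Psat1, Shmt2, Mthfd2, Slc7a5, Slc3a2, Gpt2, Nupr1, Aars) and, in each comparison, for the 6 called members with the largest differences among those averaging at least 5 CPM in the higher group. Of other lists, the 3 called genes with the smallest p may be named. Further members whose values are printed were added after their values were seen. Ddit3 has a second gene identifier with few counts, which was not used.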

Additional observations from a re-analysis of the deposited data

Results flagged for a closer look

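Cth, which makes cysteine from cystathionine, differed between the lines in its response to benzarone: the response of the EYA1_HOXA9 line minus that of the HOXA9 line was -5.79 on the log2 scale (SE 1.61, adjusted p = 0.049, edgeR interaction term). The counts were 0, 1 and 5 with benzarone and 2, 261 and 264 in DMSO for EYA1_HOXA9 cells, and 84, 85 and 125 with benzarone and 108, 77 and 187 in DMSO for HOXA9 cells. EYA1_HOXA9 cells in DMSO thus held both a library near 0 and a pair near 260 counts. The call held in 1 of the 12 edgeR fits that each left out 1 library, the one without the low library (-6.37, adjusted p = 0.003), and was lost in the other 11 (adjusted p = 0.053 to 0.123, edgeR). It was also lost with DESeq2 size factors and with the replicate block, and held with the DESeq2 Wald test and without the filter. The difference was below 0 in all of these fits.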

How the results depend on the processing

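No called value changed direction in the alternatives that were run. Of 4633 member values under bulk alternatives 4127 kept their direction and side of the threshold, 169 gained a call, 217 lost one and 120 changed sign, called neither before nor after. Of 590 single-cell values 154 moved beyond their counting interval. The causes of the changes below were not tested.

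With the DESeq2 Wald test, members higher in MOZ-TIF2 against fresh cells were 19, members lower in MOZ-TIF2 against empty-vector cells 2 and in empty-vector against fresh cells 11, and 4 were lower in the test between the lines. Without the filter 2 were lower in MOZ-TIF2 against empty-vector cells, and 0 in EYA1_HOXA9 against HOXA9 cells in DMSO. With the compared groups alone 0 were lower in MOZ-TIF2 against empty-vector cells, 2 higher and 4 lower in EYA1_HOXA9 against HOXA9 cells in benzarone, and 10 lower with benzarone in EYA1_HOXA9 cells. With DESeq2 size factors the test between the lines called 0. At a log2 difference of at least 1, 0 were lower in EYA1_HOXA9 against HOXA9 cells in DMSO, 1 in benzarone, and 6 with benzarone in EYA1_HOXA9 cells.

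With the replicate block 0 members were lower in MOZ-TIF2 against empty-vector cells, and with benzarone 18 were lower in EYA1_HOXA9 cells and 0 in HOXA9 cells. The block moved no other member count by more than 1.5 times. In HOXA9 cells the block gave 6 called genes in the joint fit and 20 in HOXA9 cells alone, a fit chosen after seeing the data. Same-numbered libraries correlated at -0.09 to 0.02 between the treatments of EYA1_HOXA9 cells and between the c-Kit groups, and at -0.34 to 0.24 between the lines, and share only a number.

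Leaving out each library in turn gave 0 to 17 members higher and 0 to 1 lower in MOZ-TIF2 against fresh cells, 10 to 25 higher and 0 to 2 lower against empty-vector cells, and 1 to 5 higher and 1 to 10 lower in empty-vector against fresh cells. In EYA1_HOXA9 against HOXA9 cells it gave 1 to 22 higher and 0 to 1 lower in DMSO, and 0 to 2 higher and 2 to 4 lower in benzarone. With benzarone 5 to 32 members were lower in EYA1_HOXA9 cells and 0 in HOXA9 cells, and the test between the lines called 0 to 16. Where this left 1 library in a c-Kit group, it was assumed to vary like the others.

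In single cells on day 1, 2 members were past the fold after thinning, 0 past 2-fold and 2 in cells with cycling marker UMIs. From day 1 to day 3 they were 4 by the mean of per-cell values, 6 after thinning, 0 past 2-fold, 6 in cells without monocyte marker UMIs and 5 in cells with cycling marker UMIs. On day 5, 2 were higher without the 50 top genes and 2 in cells without monocyte marker UMIs. Members with a Ty1 peak were 11 of 33 (33.3%) within 5 kb, against 26.5% of tested genes.

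The 120 values that changed sign belong to 63 differences. With the replicate block Aldh18a1 was at -0.024 in MOZ-TIF2 against fresh cells, Nupr1 at -0.10 and Pycr1 at -0.33 in empty-vector against fresh cells, Cth at -0.12 in EYA1_HOXA9 against HOXA9 cells in DMSO, and with benzarone Mthfd1 at 0.015 in EYA1_HOXA9 and Pycr1 at 0.0024 in HOXA9 cells. With benzarone in HOXA9 cells Pycr1 was at 0.0014 without the filter, and Tars at -0.0087 with the compared groups alone and -0.0067 with the block too. The other sign changes came with 1 library left out, and their lowest and highest log2 differences over those fits follow. In MOZ-TIF2 against fresh cells these were Aldh18a1 -0.38 to 0.36, Ddit3 -0.25 to 0.63, Sars -0.13 to 0.78 and Wars -0.15 to 0.21. In MOZ-TIF2 against empty-vector cells these were Aldh18a1 -0.19 to 0.80, Cebpg -0.54 to 0.18, Ddit3 -0.84 to 0.56, Sars -0.10 to 0.80 and Wars -0.22 to 0.15. In empty-vector against fresh cells these were Aldh18a1 -0.76 to 0.22, Ddit3 -0.30 to 1.09, Gpt2 -0.051 to 1.96, Nupr1 -0.77 to 0.79, Pycr1 -1.67 to 0.99 and Sars -0.28 to 0.20. There too were Slc7a1 -1.58 to 0.12, Slc7a5 -1.15 to 0.20, Tars -0.42 to 0.18 and Yars -0.50 to 0.26. With benzarone in EYA1_HOXA9 cells these were Mthfd1 -0.13 to 0.14, Nupr1 -0.36 to 0.40 and Wars -0.18 to 0.026. With benzarone in HOXA9 cells these were Aldh18a1 -0.18 to 0.021, Atf5 -0.0031 to 0.18, Cebpg -0.062 to 0.19, Chac1 -1.38 to 0.68, Ddit4 -1.18 to 0.88 and Eprs -0.25 to 0.079. There too were Got1 -0.16 to 0.090, Lars -0.23 to 0.11, Phgdh -0.31 to 0.061, Pycr1 -0.11 to 0.23, Slc1a5 -0.12 to 0.063 and Slc38a2 -0.068 to 0.14. The remaining ranges there were Slc3a2 -0.23 to 0.056, Slc7a1 -0.23 to 0.16, Slc7a5 -0.27 to 0.044, Tars -0.078 to 0.071, Wars -0.094 to 0.060 and Yars -0.085 to 0.011. In the test between the lines these were Lars -0.38 to 0.022, Mthfd1 -0.0049 to 0.28, Nars -0.27 to 0.0035, Nupr1 -0.094 to 0.67, Psph -0.40 to 0.073 and Wars -0.17 to 0.043. In EYA1_HOXA9 against HOXA9 cells in DMSO these were Aars -0.010 to 0.35, Cth -0.25 to 0.83, Ddit4 -0.80 to 0.78, Lars -0.080 to 0.32, Mthfd1l -0.058 to 0.12 and Phgdh -0.27 to 0.13. There too were Shmt2 -0.064 to 0.34 and Tars -0.12 to 0.10. In EYA1_HOXA9 against HOXA9 cells in benzarone these were Aars -0.081 to 0.066, Asns -0.27 to 0.0035, Cebpg -0.13 to 0.022, Chac1 -0.99 to 0.23, Iars -0.033 to 0.19 and Lars -0.20 to 0.062. There too were Nars -0.039 to 0.099, Slc3a2 -0.11 to 0.16 and Slc7a5 -0.27 to 0.048.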

Other observations

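Amino acid enzymes outside the members were read in EYA1_HOXA9 cells with benzarone. Of 20 tested, 4 were higher and 2 lower by edgeR, against 17% and 12.4% of all genes, and Glul, which makes glutamine, was higher by 1.33 on the log2 scale. Bckdhb and Bckdha, subunits of the complex that breaks down branched-chain amino acids, were higher by 1.05 and 0.62. In the test between the lines 3 of these 20 enzymes were called higher and 0 lower, against 4.71% and 2.83% of all genes, with Glul at 1.34, Bckdhb at 0.90 and Bckdha at 0.67. Without EYA1_HOXA9 DMSO replicate 1 the differences with benzarone were 1.31 for Glul, 1.02 for Bckdhb and 0.60 for Bckdha, and 5 of 21 such enzymes were higher and 1 lower.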
